A study of Homo sapiens with 12 samples.

Results

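The heavy polysome RNA of wild-type MCF10A cells was compared between irradiated and mock-treated cultures. The comparison was 1 array of RNA after 10 Gy against 1 array of RNA from mock-treated cells, which are 2 of the 12 arrays of the series. Across these arrays, 10157 of 19775 genes were measured well enough to be described. MCF10A is a non-tumorigenic human mammary epithelial line, although the cell origin named in the labels is breast cancer. The series holds wild-type cells (WT) and cells in which the translation initiation factor eIF4G1 was silenced by a short hairpin RNA under doxycycline control (KD), each mock-treated or given 10 Gy from a linear accelerator. For each of these 4 conditions there is 1 array of light polysomes (LMW), 1 of heavy polysomes (HMW) and 1 of total RNA (Total). A control hairpin or doxycycline in WT cells is not mentioned in the labels, and no source used here gives the hours from irradiation to harvest.

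Ribosomes that follow each other along an mRNA form a polysome, and a sucrose gradient separates mRNAs by how many ribosomes they carry. Heavily loaded mRNAs sediment fast and are usually the ones being translated actively, so a change in the heavy pool that is absent from total RNA is read in this field as a change in ribosome loading. Ionising radiation breaks DNA, activates the kinases ATM and DNA-PK and stabilises p53, a transcription factor that induces cell cycle inhibitors, repair genes and death genes.

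Per the labels' protocols, cycloheximide was added before lysis to hold ribosomes in place. The WT mock heavy pool held mRNAs with 4 or more ribosomes and the WT mock light pool those with 1 to 3, per the labels. Ribosome numbers for the other pools are not stated. Each pool was one hybridisation with no replicate, so no error can be attached to a difference and none was tested. A difference of 2-fold, which is 1 on the log2 scale, was used only to count genes. In bulk RNA, fewer cells and less RNA per cell cannot be told apart, and because every array was normalised, the values show the makeup of a pool and not the amount of polysomal RNA.

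The WT mock HMW array stood apart from the other heavy arrays. It differed by at least 2-fold from the WT 10 Gy HMW array at 1830 genes, from the KD mock HMW array at 2328 and from the KD 10 Gy HMW array at 2640. The WT 10 Gy HMW array differed from the KD mock HMW array at 867 genes, and the 2 KD heavy arrays differed from each other at 86. The WT mock HMW array was closer to the KD mock light array, with 1034 genes beyond 2-fold, than to any other heavy array. From the WT mock Total array, the WT mock HMW array differed at 3478 genes and the WT 10 Gy HMW array at 1253. The WT mock LMW array differed from WT mock Total at 5028 genes and the WT 10 Gy LMW array at 2332. Both WT mock polysome arrays were thus further from mock total RNA than the irradiated ones. Hybridisation spikes averaged a log2 intensity of 11.8 on the WT mock HMW array and 11.2 on the WT 10 Gy HMW array, against 10.7 to 12 on the 10 other arrays. The signal at the 3′ end of GAPDH exceeded that at its 5′ end by 0.32 (log2) on the mock array and 0.40 on the irradiated array. The part of these array properties in the results was not tested. All 8 basal mammary markers measured, such as KRT5 and KRT14, reached a log2 intensity of 6 in both WT heavy arrays. For luminal markers this held for 5 of 11, for fibroblast markers for 5 of 12 and for leukocyte markers for 1 of 8. The summed leukocyte marker intensity was 309 in mock and 299.6 after 10 Gy, and the pan-leukocyte marker PTPRC stayed near a log2 intensity of 3 (2.99 in mock and 3.03 after 10 Gy).

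After 10 Gy, 1607 genes were at least 2-fold higher on heavy polysomes, or 15.8% of the genes measured, and 223 were at least 2-fold lower, or 2.2%. The higher group held 87.8% of these genes. The median difference over all genes was 0.03 on the log2 scale, with a standard deviation over genes of 0.77 and a range from -2.27 to 3.69. In total RNA the same dose gave 8 genes at least 2-fold higher (0.0788%) and 1 at least 2-fold lower (0.00985%). Total RNA therefore differed little where the heavy pool differed at many genes. The 2-fold line cut through a dense region: 226 of the higher genes lay within 0.1 log2 above it and 279 further genes within 0.1 below it. Of the lower genes, 89 lay within 0.1 beyond the line, and 157 others fell short of it by at most 0.1.

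**Figure D1:**
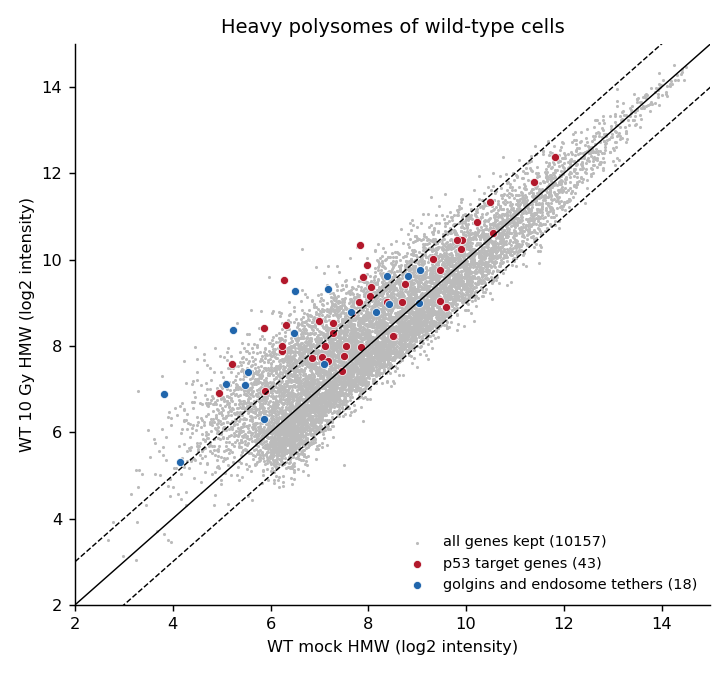
Log2 intensity of each of the 10157 genes in WT mock HMW (horizontal axis) and WT 10 Gy HMW (vertical axis), 1 array each. The solid line marks equal levels and the dashed lines 2-fold. The 1607 higher genes lie on or above the upper dashed line, with a median mock level of 6.69, and the 223 lower genes on or below the lower dashed line. The red points are p53 target genes and the blue points golgins and endosome tethers.

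The levels of the genes that were higher after 10 Gy are given here as a description. Choosing genes for a mock heavy level below the irradiated one favours low mock values, so nothing is drawn from that side. Their median log2 intensity was 6.69 in WT mock HMW and 8.18 in WT 10 Gy HMW, while in total RNA it was 8.46 in mock and 8.51 after 10 Gy. In mock cells their heavy level lay below their total level by a median of -1.64 log2, and after 10 Gy by -0.16. Of the 1607 genes, 1301 were at least 2-fold below total RNA in the mock heavy pool and 228 in the irradiated one. Of all 10157 genes, 2227 were in mock and 739 after 10 Gy, so the lower count after 10 Gy was not particular to this group. The mock heavy level was under a log2 intensity of 6 at 506 of the 1607 genes, or 31.5%, against 9.33% of all genes. In KD cells, the same genes had medians of 8.05 in mock HMW and 8.16 in 10 Gy HMW.

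Light polysomes differed too, at many shared genes. In WT LMW, 1620 genes were at least 2-fold higher (15.9%) and 421 at least 2-fold lower (4.14%). The higher heavy and higher light genes shared 979 members, which are 60.9% of the heavy list and 60.4% of the light list. The median light difference of the higher heavy genes was 1.21, beside a heavy median of 1.40 and a total RNA median of 0.01. Of the 223 lower heavy genes, 70 were also at least 2-fold lower in LMW, which are 31.4% of that list and 16.6% of the light one. Across the 10157 genes, the heavy and light differences had a Pearson correlation of 0.76, and the heavy and total differences one of 0.19. These correlations are over genes, which are not independent replicates, and each pair of pools came from the same cultures' conditions.

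The excess of higher over lower genes depended on the scaling. The upper quartile of probe set intensity was 92.8 on the WT mock HMW array and 116.5 on the WT 10 Gy HMW array. On these arrays 16654 and 17486 probe sets reached a log2 intensity of 6. With the array difference corrected by loess against mean level, 1268 genes were higher and 428 lower, so 74.8% of the calls were higher. With all 12 arrays quantile-normalised again, 1140 were higher and 652 lower, so 63.6% were higher, and the median of all genes moved to -0.15. Setting the WT 10 Gy HMW array against the KD mock HMW array, which leaves out the WT mock array but mixes genotype with dose, gave 543 higher (5.35%) and 324 lower genes (3.19%). Other probe sets of the same gene gave a check of direction on the same RNA. Of 1382 such probe sets for the higher genes, 1304 (94.4%) also read higher, and of 77 for the lower genes, 73 (94.8%) read lower. Over all genes, 5441 of 6657 such probe sets (81.7%) read the same way as the one used for the gene.

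The 10 genes with the largest higher differences, among those whose other probe sets did not disagree, were ZNF292, CLCA2, INHBA, EHF, HYCC2, TRIM22, FAM98B, BDP1, MYO6 and MAP9, from 3.69 down to 3.17 log2. CLCA2, an epithelial membrane protein that p53 can induce, had a log2 intensity of 5.96 in mock and 9.60 after 10 Gy, a difference of 3.65. INHBA, the subunit of the TGF-beta family ligand activin A, went from 6.65 to 10.26 in HMW and from 6.69 to 9.97 in LMW. Its total RNA read 10.96 in mock and 11.57 after 10 Gy. INHBA thus differed in both polysome pools far more than in total RNA. EHF, an epithelial ETS transcription factor, read 3.77 in mock HMW and 7.31 after 10 Gy, with total RNA at 7.96 and 8.19. BDP1, a subunit of the RNA polymerase III factor TFIIIB, read 5.31 in mock and 8.53 after 10 Gy. MYO6, an actin motor, read 4.49 and 7.69. For CLCA2, EHF, BDP1 and MYO6 the mock value was below a log2 intensity of 6, so the size of their differences rests on a dim reading.

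Set against total RNA, the difference of differences (HMW minus Total) was largest at ZNF292 and FAM98B with 3.51 each, EHF with 3.31, HYCC2 with 3.22, EEA1 with 3.21, MAP9 with 3.20, BDP1 with 3.19 and DSC3 with 3.12. Over all genes this measure was at least 1 at 1678 genes (16.5%) and at most -1 at 173 (1.7%). FAM98B, a component of a tRNA ligase complex, read 5.59 in mock HMW and 8.84 after 10 Gy, while its total RNA read 9.87 and 9.61. Its mock heavy level was likewise below a log2 intensity of 6. The other probe set of FAM98B differed by 3.71.

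Ribosomal protein mRNAs stayed together. Of 52 measured, 0 were at least 2-fold higher and 0 at least 2-fold lower, against 15.8% and 2.2% of all genes. Their median difference was 0.02 (-0.01 with the difference centred on all genes), with a range from -0.71 for RPL27A to 0.54 for RPS24. The list's median log2 intensity was 13.5 in both WT heavy arrays, against 7.97 in mock and 8.19 after 10 Gy for all genes. Its genes are also short, and of the shortest class of genomic span, described below, 2.66% were at least 2-fold higher. The part of level and span in these counts was not tested. RPS24 read 12.69 in mock HMW and 13.23 after 10 Gy, and RPS12 read 12.61 and 13.08. RPL27A read 8.54 and 7.83, and RPLP2 read 7.09 and 6.48, both far dimmer than most ribosomal protein probe sets. These mRNAs typically start with a C followed by a run of pyrimidines, a 5′ motif that links their translation to mTOR. The starts of the 2 lowest and the 2 highest ribosomal protein genes are shown to let them be compared with 3 strongly shifted genes. Each line gives 8 bases before the RefSeq start and 16 bases from it, on the gene's strand, with capitals for the pyrimidine run that begins at the start; the sequences are from RefSeq, build GRCh38.p14.
RPL27A: aggccttcCTTTTTCgtctgggct
RPLP2: ggcgccttCCTTTTCCTCCCTgtc
RPS12: gatgaggcCTCTTTCCCTgccgcc
RPS24: tcgtggttCTCTTTTCCTCCTTgg
EIF5B: gagaactcacaccatatgtgtcct
EEA1: ggcgggctggaggcgctcgcaggc
DSC3: aaaagcacCTCCCgcgccctgcac
These windows span the 5′ end of exon 1 of each gene. They lie at chr11:8682784-8682807 (+) for RPL27A, chr11:809959-809982 (+) for RPLP2, chr6:132814561-132814584 (+) for RPS12, chr10:78033855-78033878 (+) for RPS24, chr2:99337381-99337404 (+) for EIF5B, chr12:92929280-92929303 (-) for EEA1 and chr18:31042727-31042750 (-) for DSC3. All 4 ribosomal protein genes carry the run, whether their heavy level was lower or higher after 10 Gy. EIF5B and EEA1 carry none, and DSC3, a desmosomal cadherin gene that was 3.16 higher, carries a short one.

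A start with C and at least 4 further pyrimidines was present at 465 of the 8409 measured genes with a start sequence, or 5.53%. Among ribosomal protein genes it was present at 33 of 46, or 71.7%. The median heavy difference was -0.03 for genes with such a start, of which 11.6% were at least 2-fold higher, and 0.06 for genes without one, of which 16.7% were. Outside the ribosomal proteins, the genes with such a start had a median of -0.04 and 12.5% at least 2-fold higher. The start used is the one RefSeq gives, and the start that MCF10A cells use was not measured.

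Among 42 translation initiation factors, 2 (4.76%) were at least 2-fold higher and 1 (2.38%) at least 2-fold lower, against 15.8% and 2.2% of all genes, with a median of -0.12. EIF5B, the GTPase that joins the ribosomal subunits at the start codon, read 7.63 in mock HMW and 10.03 after 10 Gy, a difference of 2.40. Its LMW level read 4.45 and 6.57, while its total RNA read 10.50 and 10.48. All 4 other probe sets of EIF5B differed by 2.44 to 2.87. EIF3A, the largest eIF3 subunit, was 1.18 higher. EIF4EBP1, which holds back cap-dependent translation by binding eIF4E, was lower by -1.01, from 10.61 to 9.60. EIF4G1, the scaffold that joins the cap-binding protein to the ribosome and the gene silenced in the KD cells, read 11.50 in WT mock HMW and 10.97 after 10 Gy, and 7.53 and 7.56 in the KD heavy arrays. In HMW, initiation factor mRNAs as a list therefore held fewer higher genes than the 15.8% of all genes. EIF5B was the member furthest from the rest. In LMW, 7 of the 42 were at least 2-fold higher, where 15.9% of all genes were. The list's median log2 intensity was 11.4 in WT mock HMW, against 7.97 for all genes. The part of level in these counts was not tested. Among aminoacyl-tRNA synthetases, which charge tRNAs, 0 of 18 were at least 2-fold higher or lower, against 15.8% and 2.2% of all genes, with NARS1 at 0.91 and VARS1 at -0.99.

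The list with the highest median was that of golgins and endosome tethers, long coiled-coil or lipid-transfer proteins that hold vesicles and organelles near each other. Of 18 measured, 11 were at least 2-fold higher and 0 lower, against 15.8% and 2.2% of all genes, with a median of 1.19. EEA1, which tethers early endosomes, read 5.23 in mock HMW and 8.36 after 10 Gy, a difference of 3.14. Its total RNA read 9.44 in mock and 9.37 after 10 Gy, and its LMW level 6.26 and 6.57. TRIP11, the golgin GMAP-210, read 3.82 and 6.88 in HMW, and in LMW it was lower by -0.89. GOLGA4, the trans-Golgi golgin p230, read 6.50 and 9.27, a difference of 2.77. VPS13C, a lipid-transfer protein between organelles, was 2.14 higher and GCC2, another trans-Golgi golgin, 2.03 higher. GCC1 at -0.05, GOLGA1 at 0.42 and GOLGA2 at 0.48 were the lowest members, and the probe sets of GOLGA2 did not all read the same way. The list's median was 0.34 in LMW, 0.04 in Total and 0.34 in KD HMW.

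In mock WT cells, the golgin and tether mRNAs lay below total RNA by a median of -1.61 log2 in the heavy pool, and after 10 Gy by -0.26. Of the 18, 7 had a mock heavy level under a log2 intensity of 6. Setting WT 10 Gy HMW against KD mock HMW, the list's median was -0.23, with 1 gene at least 2-fold higher and 3 lower. This comparison mixes genotype with dose. The list's median log2 intensity was 6.80 in WT mock HMW and 8.77 in KD mock HMW. The direction of this list turned when KD mock HMW took the place of WT mock HMW, and the cause was not tested. Of all genes, 5.35% were at least 2-fold higher in that comparison and 3.19% lower.

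**Figure D2:**
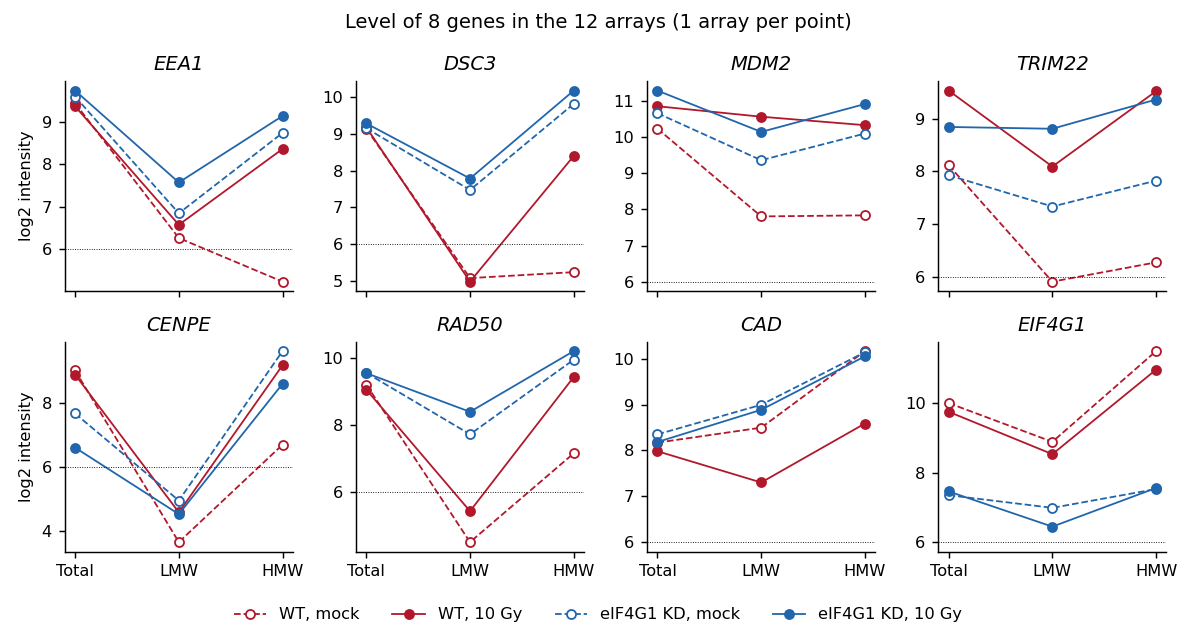
Log2 intensity of 8 genes in Total, LMW and HMW (horizontal axis), with 1 array per point; red is WT, blue is eIF4G1 KD, open points with dashed lines are mock and filled points with solid lines 10 Gy. The dotted line marks a log2 intensity of 6, and the vertical axes differ between genes. EEA1, DSC3, CENPE and RAD50 have nearly equal WT totals but a WT mock HMW level below the other 3 heavy arrays, while CAD is lower only in the WT 10 Gy light and heavy arrays.

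p53 target genes were higher on heavy polysomes and, less so, in total RNA. Of 43 measured, 18 (41.9%) were at least 2-fold higher and 0 lower, against 15.8% and 2.2% of all genes, with a median of 0.70 in HMW, 0.96 in LMW and 0.36 in Total. In Total, 3 of the 43 were at least 2-fold higher, where 8 genes in all were. These were TRIM22, GDF15 and SPATA18. TRIM22, an antiviral ubiquitin ligase, read 6.27 in mock HMW and 9.53 after 10 Gy, and 8.12 and 9.54 in Total. GDF15, a stress-induced secreted factor, read 6.31 and 8.49 in HMW and 7.16 and 8.51 in Total. SPATA18, which acts in mitochondrial quality control, was 1.95 higher in HMW and 1.01 in Total. For these genes part of the heavy difference was also present in total RNA.

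MDM2, the ubiquitin ligase that degrades p53, read 7.84 in mock HMW and 10.34 after 10 Gy, a difference of 2.5. Its LMW level read 7.81 and 10.57, and its Total level 10.24 and 10.86. Of its 4 other probe sets, 3 read higher, with a range from -0.03 to 2.46. TP53INP1, which aids p53-dependent death, was 2.55 higher and KITLG, the KIT ligand, 2.36 higher, the latter with -0.06 in Total. Further members past 2-fold included ZMAT3 (1.92), APAF1 (1.76), RRM2B (1.72), FAS (1.60), GADD45A (1.31), PPM1D (1.20) and POLH (1.04). CDKN1A, which encodes the cell cycle inhibitor p21, read 10.23 in mock HMW and 10.88 after 10 Gy, a difference of 0.65 beside 0.79 in Total. CDKN1A was thus near its total RNA change and did not pass 2-fold. The lowest members were AEN at -0.67, SERTAD1 at -0.43 and PHLDA3 at -0.30, and another probe set of PHLDA3 read 0.14.

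In KD cells, the p53 targets had a median of 0.59 in HMW, with 6 of 43 at least 2-fold higher where 34 genes in all were (0.335%). The difference between the genotypes was not tested. Against KD mock HMW, the WT 10 Gy HMW array gave this list a median of 0.20, with 6 genes at least 2-fold higher and 0 lower. The shares of all genes in that comparison were 5.35% higher and 3.19% lower. The median of HMW minus LMW, which sets the heavy difference against the light one, was -0.07 for this list. Over all genes that measure was at least 1 at 446 genes (4.39%) and at most -1 at 291 (2.87%).

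**Figure D3:**
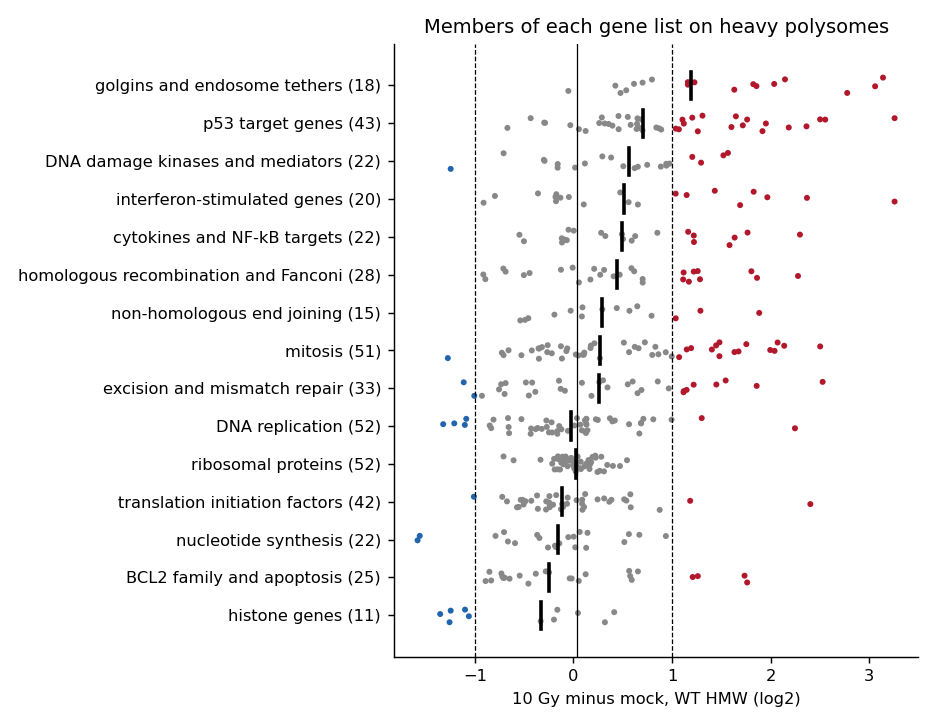
WT HMW difference (10 Gy minus mock, log2) of each measured member of 15 gene lists, with the number of members in parentheses; 1 point is 1 gene, and points are spread vertically for legibility. Red points are at least 2-fold higher, blue points at least 2-fold lower, black bars are list medians, dashed lines mark 2-fold and the thin solid line the median of all genes, 0.03. The golgin list has its median at 1.19 and the p53 list at 0.70, the ribosomal proteins lie between -0.71 and 0.54, and the histone genes have a median of -0.33.

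Genes that sense DNA breaks had members on both sides. Of 22 DNA damage kinases and mediators, 4 (18.2%) were at least 2-fold higher and 1 (4.55%) lower, shares near the 15.8% and 2.2% of all genes, with a median of 0.56. ATM, the kinase activated by DNA breaks, read 7.50 in mock HMW and 9.07 after 10 Gy, a difference of 1.57 beside 0.20 in Total. TOPBP1, which activates the kinase ATR, was 1.52 higher, and RAD17, which loads the checkpoint clamp, 1.29 higher. ATR itself was 0.97 higher. H2AX, the histone variant phosphorylated at breaks, read 11.53 in mock HMW and 10.29 after 10 Gy, a difference of -1.24, with -0.59 in Total. WEE1, a kinase that holds back mitosis, was at -0.71, although its other probe set read 0.09.

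In homologous recombination and the Fanconi pathway, 9 of 28 measured genes (32.1%) were at least 2-fold higher and 0 lower, against 15.8% and 2.2% of all genes, with a median of 0.44 in HMW and -0.15 in Total. RAD50, part of the MRN complex that binds broken ends, read 7.15 in mock HMW and 9.42 after 10 Gy, a difference of 2.28, and its total RNA read 9.2 and 9.05. The 2 other probe sets of RAD50 differed by 2.17 and 2.71. NBN, another MRN subunit, was 1.28 higher. BRIP1, a helicase, was 1.86 higher, FANCM, which recognises stalled forks, 1.80 higher and BRCA1, a central recombination factor, 1.12 higher. FANCE at -0.91, MUS81 at -0.89 and FANCG at -0.71 were the lowest members. Against KD mock HMW, the list's median was 0.82, with 9 genes at least 2-fold higher and 0 lower. The shares of all genes in that comparison were 5.35% higher and 3.19% lower.

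Of 15 genes of non-homologous end joining, 3 (20%) were at least 2-fold higher and 0 lower, with a median of 0.29. They were RIF1 at 1.88, LIG4, the ligase of the pathway, at 1.29 and XRCC4, its partner, at 1.04. The probe sets of RIF1 did not all agree, with other values from -0.69 to 1.33. PRKDC, which encodes DNA-PK, read 10.76 in mock HMW and 10.85 after 10 Gy, a difference of 0.09, although in LMW it was 1.12 higher. Of 33 genes of excision and mismatch repair, 8 (24.2%) were at least 2-fold higher and 2 (6.06%) lower, with a median of 0.26. ERCC4, a nuclease subunit, read 4.04 and 6.57, and ERCC5, the other nuclease of nucleotide excision repair, read 7.44 and 9.30. UNG, which removes uracil from DNA, was at -1.11 and MPG, which removes alkylated bases, just past 2-fold at 2.01 times lower. For all genes these shares were 15.8% and 2.2%.

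Mitosis genes split by gene. Of 51 measured, 15 (29.4%) were at least 2-fold higher and 1 (1.96%) lower, against 15.8% and 2.2% of all genes, with a median of 0.27 in HMW, 0.07 in LMW and -0.02 in Total. CENPE, a kinetochore motor, read 6.70 in mock HMW and 9.2 after 10 Gy, a difference of 2.5, while its total RNA read 9.04 and 8.91. KIF18A, which shortens kinetochore microtubules, was 2.14 higher and KIF20B, a cytokinesis kinesin, 2.07 higher. HMMR, a spindle protein, was 2.04 higher with 0.82 in Total. CDK1, the mitotic kinase, read 10.56 and 12, whereas its cyclin CCNB1 read 12.22 and 12.10. ESPL1, the protease separase, read 10.50 and 9.22, a difference of -1.27 with -0.04 in Total. CDC20, the activator of the anaphase-promoting complex, was at -0.73 and CKS2, a small CDK-binding protein, at -0.71.

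In KD cells, the mitosis list went the other way, with a median of -0.82 in HMW and -1.13 in Total, and 15 of 51 genes at least 2-fold lower in HMW where 52 genes in all were (0.512%). CENPE was -1.03 in KD HMW and CCNB1 -1.0. All 51 genes were below 0 in KD HMW, so the 34 that were above 0 in WT HMW all had opposite signs. Of all genes, 51.8% were above 0 in WT HMW. The difference between genotypes was not tested. Against KD mock HMW, the WT 10 Gy HMW array gave mitosis genes a median of 0.88, with 24 at least 2-fold higher and 0 lower. In that comparison, which mixes genotype with dose, 5.35% of all genes were higher and 3.19% lower.

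**Figure D4:**
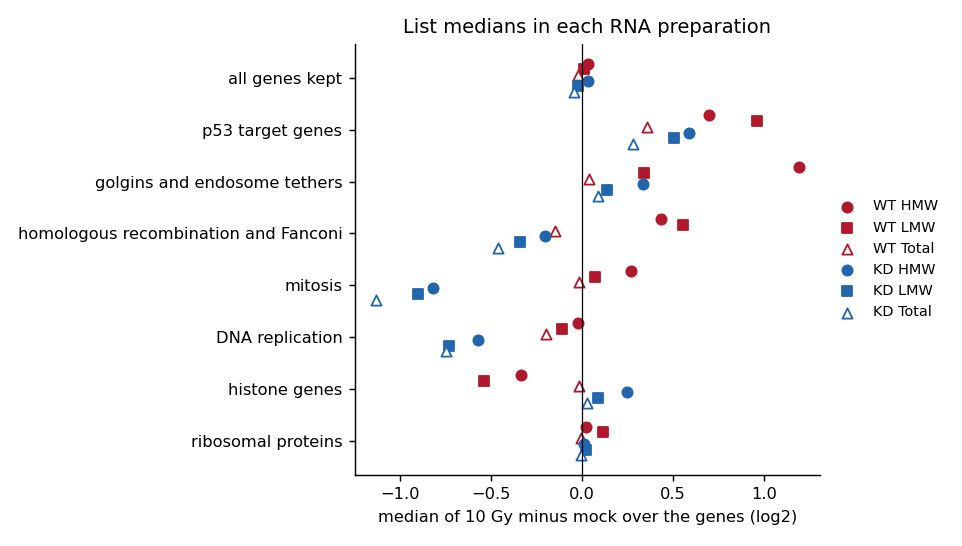
Median 10 Gy minus mock difference (log2, horizontal axis) of 7 gene lists and of all genes, in WT (red) and KD (blue) cells, for HMW (circles), LMW (squares) and Total (open triangles), each from 1 array against 1. Mitosis has 0.27 in WT HMW and -0.82 in KD HMW, golgins 1.19 and 0.34, and ribosomal proteins lie near 0 in every preparation.

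The genes that were lower after 10 Gy included histone genes, replication helicase subunits and enzymes of nucleotide synthesis. Of 11 histone genes measured, 0 were at least 2-fold higher and 5 lower, against 15.8% and 2.2% of all genes, with a median of -0.33 in HMW, -0.54 in LMW and -0.01 in Total. H1-10, a linker histone, read 9.30 in mock HMW and 7.95 after 10 Gy, a difference of -1.35. H2BC6 was at -1.26, H2AX at -1.24, H2BC9 at -1.1 and H1-2 at -1.06. For H2BC6 and H1-2, Total moved the other way, by 0.43 and 0.48. Core histone mRNAs mostly lack a poly(A) tail and histone genes are near-copies, so their values on a 3′ primed array are uncertain, and signal may be shared between H2BC6 and H2BC9. The highest members were H3-3A at 0.41, H2AC6 at 0.32 and MACROH2A1 at 0.05.

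Of 52 DNA replication genes, 2 (3.85%) were at least 2-fold higher and 4 (7.69%) lower, against 15.8% and 2.2% of all genes, with a median of -0.02. The replication list had a median of 0.93 against KD mock HMW, with 23 genes at least 2-fold higher and 0 lower. In that comparison, which mixes genotype with dose, 5.35% of all genes were higher and 3.19% lower. The list's median log2 intensity was 9.80 in WT mock HMW, 9.45 in WT 10 Gy HMW and 8.65 in KD mock HMW. It was thus already higher in mock WT than in mock KD cells. MCM5, a subunit of the replicative helicase, read 11.52 in mock HMW and 10.20 after 10 Gy, a difference of -1.32 with -1.73 in LMW and -0.57 in Total. MCM2, another subunit, read 12.42 and 11.32. GINS2, of the helicase complex, was at -1.21 and TK1, thymidine kinase, at -1.09. RFC1, the large clamp loader subunit, was 2.24 higher and ORC3, of the origin recognition complex, 1.30 higher. Among 22 genes of nucleotide synthesis, 0 were at least 2-fold higher and 2 (9.09%) lower. CAD, the enzyme that starts pyrimidine synthesis, read 10.17 in mock HMW and 8.59 after 10 Gy, a difference of -1.58, with -1.20 in LMW and -0.19 in Total. PFAS, an enzyme of purine synthesis, read 11.49 and 9.93, a difference of -1.56, with -1.66 in LMW. In the KD heavy arrays CAD read 10.14 and 10.05, so for CAD the WT 10 Gy array was the one below the other 3.

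Of the 10 lowest genes by the rule, LINC01003 (-2.27), ACAP1 (-1.75), GPR162 (-1.63), CAD (-1.58), SSC4D and PFAS (-1.56 each), CYP11B2 and SLC6A2 (-1.55 each), MTFP1 (-1.52) and MYL10, 6 were below a log2 intensity of 8 in every other array. SLC6A2, the noradrenaline transporter, read 6.66 in mock HMW and 5.11 after 10 Gy, and CYP11B2, aldosterone synthase, 6.92 and 5.37. Both are genes of other tissues, and their LMW differences were 0.45 and 0.18. MTFP1, a mitochondrial fission protein, read 9.23 and 7.71, with -1.39 in LMW and -0.64 in Total. The lower class therefore held dim genes and well-measured ones. Among the 223 lower genes, 80 had a mock heavy level under 7, and their median LMW difference was 0.00. The 110 with a mock level of at least 8 were all below 0 in LMW, with a median of -1.05.

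Against total RNA, the lowest differences of differences were at H2BC6 (-1.69), SLC6A2, LINC01003 and SMO (-1.62 each), SP8 (-1.59), H1-2 (-1.54), TAMALIN (-1.52) and HDAC10 (-1.46). SMO, the Hedgehog signal transducer, read 6.75 in mock HMW and 5.25 after 10 Gy, with total RNA at 5.79 and 5.91. HDAC10, a polyamine deacetylase, read 7.0 and 5.71, and its other probe set -0.49. Apart from H1-2 and LINC01003, the brightest of these genes in mock HMW was TAMALIN with 7.28, so most of this end of the range was dim.

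Several desmosomal cadherin genes were higher, while the list they belong to had a median near that of all genes. Of 22 keratin and desmosome genes, 6 (27.3%) were at least 2-fold higher and 0 lower, against 15.8% and 2.2% of all genes, with a median of 0.12. The keratin and desmosome list had a median of -0.73 against KD mock HMW, with 1 gene at least 2-fold higher and 8 lower. In that comparison, which mixes genotype with dose, 5.35% of all genes were higher and 3.19% lower. The desmosomal cadherins DSC3 (3.16), DSG3 (2.37), DSC2 (2.15) and DSG2 (1.75) were in this group, with PKP2 (1.16) and KRT15 (1.09). DSC3 read 5.24 in mock HMW and 8.40 after 10 Gy, 9.15 and 9.19 in Total, and 5.08 and 4.98 in LMW, where both readings were dim. DSG2 read 9.0 and 10.76. EVPL at -0.91 and PKP3 at -0.72, proteins of the desmosomal plaque and cornified envelope, were the lowest. Among 26 genes of the extracellular matrix and integrins, 6 (23.1%) were at least 2-fold higher and 0 lower, with a median of 0.27. ITGA2, a collagen receptor subunit, read 6.94 and 9.84, ITGAV read 8.14 and 10.23, and their shared partner ITGB1 read 10.76 and 12.39. ITGB4, the hemidesmosome integrin, read 10.05 and 9.10. Against KD mock HMW the matrix and integrin list had a median of -0.79, with 0 genes at least 2-fold higher and 9 lower. The shares of all genes there were again 5.35% and 3.19%.

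Of 22 cytokine and NF-kB target genes, 7 (31.8%) were at least 2-fold higher and 0 lower, against 15.8% and 2.2% of all genes, with a median of 0.50 in HMW and 0.16 in Total. PTGS2, the inducible prostaglandin synthase, was 2.30 higher in HMW, from 4.23 to 6.52, and -0.26 in Total. CXCL8, a neutrophil attractant, read 8.85 and 10.48 in HMW and 10.37 and 11.12 in Total. CXCL3 was 1.76 higher and IL1B, an inflammatory cytokine, 1.22 higher, while NFKBIA, the NF-kB inhibitor, was at -0.50. Among 20 interferon-stimulated genes, 8 (40%) were at least 2-fold higher and 0 lower, with a median of 0.52 in HMW and -0.12 in LMW. TRIM22 is counted here too. SAMD9 was 2.37 higher and IFIH1, an RNA sensor, 1.97 higher, from 5.14 to 7.10, whereas BST2 was at -0.91 and IRF7 at -0.80. Of these 20 genes, 8 had a mock heavy level under a log2 intensity of 6, and against KD mock HMW the median was -0.14 for interferon-stimulated genes and -0.46 for cytokines.

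Among 25 BCL2 family and apoptosis genes, 4 were at least 2-fold higher and 0 lower, 16% against 15.8% of all genes, with a median of -0.25 (0.11 against KD mock HMW). APAF1, the apoptosome scaffold, read 6.24 in mock HMW and 8.0 after 10 Gy, a difference of 1.76. XIAP, a caspase inhibitor, read 7.10 and 8.84, a difference of 1.73, and all 4 other probe sets read 1.21 to 1.69. PMAIP1, the p53-induced death protein NOXA, was 1.26 higher. BCL2L11, which encodes BIM, was 1.21 higher, but its 3 other probe sets read -0.79 to -0.21. MCL1 read 12.44 and 12.49. BCL2L1, which encodes BCL-XL, was at -0.72, BIK at -0.85 and TNFRSF1A, a TNF receptor, at -0.89. Death-promoting and death-blocking genes were thus found on both sides.

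The size of the genomic span of a gene, from the RefSeq start to its end, went with the heavy difference. The 10151 genes with a span were put in 5 classes of equal number. In the shortest class, from 0.084 to 9.47 kb, the median WT HMW difference was -0.34, with 2.66% at least 2-fold higher and 4.14% at least 2-fold lower. In the longest class, from 87.9 to 2220 kb, the median was 0.63, with 32.8% higher and 0.64% lower. Light polysomes had medians from -0.29 in the shortest class to 0.37 in the longest, and total RNA from -0.03 to -0.01. In KD HMW the medians were 0.02 and 0.07. The order by span was thus present in the WT polysome pools and nearly flat in total RNA and in KD HMW.

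The order lay in the mock array rather than in the irradiated one. In mock cells the median of HMW minus Total was 0.34 in the shortest class and -0.53 in the longest. After 10 Gy it was 0.02 and 0.09. The spans of several lists are given here beside the classes. In the class from 41.4 to 87.9 kb, the median WT HMW difference of all genes was 0.37. The median span was 82.7 kb for matrix and integrins, whose heavy median was 0.27, and 63.5 kb for nuclear pore and transport, with 0.26. It was 80.4 kb for golgins, 58.1 kb for homologous recombination, 28.9 kb for mitosis, 24.8 kb for p53 targets, 4.92 kb for ribosomal proteins and 1.59 kb for histones. Span is not the length of the mRNA or of the protein, and its part in the list medians was not tested.

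**Figure D5:**
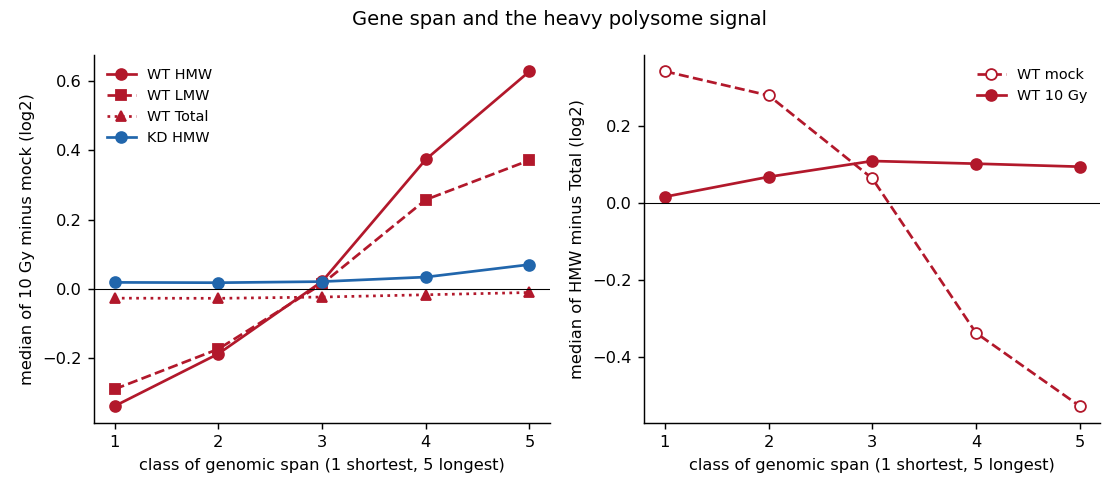
Medians over 5 classes of genomic span (horizontal axis, shortest to longest; about 2030 genes each) of the 10 Gy minus mock difference in WT HMW, WT LMW, WT Total and KD HMW (left, log2) and of HMW minus Total in the WT mock and WT 10 Gy arrays (right, log2). WT HMW goes from -0.34 to 0.63 and WT mock HMW minus Total from 0.34 to -0.53, while WT 10 Gy HMW minus Total stays between 0.02 and 0.11.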

How the data were processed

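Values are the deposited probe set intensities of 12 arrays, on a linear scale, made with RMA per the submitters' processing notes (version and joint normalisation: not given in the sources used here). They were turned to log2. Of 54675 probe sets, 41097 had 1 gene symbol; each gene took its probe set with the highest mean, and the 10157 genes that reached log2 6 in 4 or more arrays stayed in. The number of arrays limits the precision. With 1 array per group no test was made: genes at or beyond 2-fold and list medians are given beside those of all genes. The design named a comparison by protein length; no protein table was used here, and genomic span replaced it after the data were seen. The members and the 42 lists (1275 genes, 1133 on the array, 1022 kept) were chosen with earlier results of these data known. Named genes are EIF4G1, the 10 highest and lowest differences and the 8 highest and lowest HMW minus Total values (log2 of at least 6 in the higher heavy array, other probe sets going the same way), the 3 highest and lowest of each list, list members past 2-fold, and members of the p53, damage, repair, apoptosis, mitosis and initiation factor lists. Alternatives changed the filter, the probe set rule and the scaling. Python 3.11.15 with pandas 2.3.3, numpy 2.4.6, statsmodels 0.14.6 and matplotlib 3.10.9 were used. The difference and counting steps were tested on simulated data, and the scaling alternatives were not.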

Additional observations from a re-analysis of the deposited data

Results flagged for a closer look

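Several lists had medians of opposite sign in the heavy polysomes of WT and KD cells, each at least 0.2 log2 from 0; the differences were not tested, because each rests on 1 array against 1. For mitosis genes the median 10 Gy difference was 0.27 in WT and -0.82 in KD. For homologous recombination and Fanconi genes it was 0.44 in WT and -0.2 in KD. For histone genes it was -0.33 in WT and 0.25 in KD. For nuclear pore and transport genes it was 0.26 in WT and -0.21 in KD, with KPNB1 at 1.22 and NUP188 at -1.34 as the ends of the WT range.

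Probe sets without a single gene symbol were used in no comparison above. Of 2267 of them that passed the same level filter, 325 were at least 2-fold higher after 10 Gy in WT HMW, or 14.3%, and 60 at least 2-fold lower, or 2.65%.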

How the results depend on the processing

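No paired analysis was possible because each group has 1 array. The count of higher genes (1607) moved by more than 1.5 times in HMW minus LMW (446), against KD mock HMW (543) and among genes at log2 of at least 7 in both heavy arrays (659). The count of lower genes (223) was 340 with no filter, 134 with a level filter of 7, 140 with the median of a gene's probe sets, 109 at log2 of at least 7 in both heavy arrays, 428 after loess and 652 after quantile normalisation. Among the list medians of the report that moved, histones were at -0.74, interferon-stimulated genes at 0.24 and cytokines at 0.21 with no filter. With a level filter of 7, interferon-stimulated genes were at 1.04. With the median of probe sets, mitosis was at 0.57 and golgins at 0.83. Without probe sets named _x_at or _s_at, p53 targets were at 0.96, mitosis at 0.64, matrix and integrins at 0.63 and heat shock genes at 0.73. After quantile normalisation, DNA damage kinases were at 0.24 and stress response genes turned to -0.0029.

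In HMW minus Total, histones were at -0.69 and interferon-stimulated genes at 0.15. In HMW minus LMW, the sign turned for p53 targets (-0.0679), DNA damage kinases (-0.069), stress response genes (-0.0303), cytokines (-0.0247), nuclear pore genes (-0.001), noncoding RNAs (-0.31) and EGF receptor and ligands (-0.10), while recombination genes were at 0.11, histones at -0.0559, keratins at 0.38 and nucleotide synthesis at 0.15. Against KD mock HMW, the sign turned for aminoacyl-tRNA synthetases (-0.0508), cytokines (-0.46), interferon-stimulated genes (-0.14), matrix and integrins (-0.79), golgins (-0.23) and EGF receptor and ligands (-0.0019); p53 targets were at 0.20, mitosis at 0.88, recombination at 0.82, replication at 0.93, apoptosis at 0.11, keratins at -0.73, nucleotide synthesis at 0.24, mitochondrial ribosomal proteins at -0.0032 and histones at -0.0548. At log2 of at least 7 in both heavy arrays, stress response (-0.0425) and interferon-stimulated genes (-0.11) turned and golgins were at 0.70. These last 2 alternatives were chosen after seeing the data.

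Of 418 list medians over 38 lists, 356 moved by less than 0.25, 46 moved further and 16, each of at least 0.25 in the report, changed sign. The causes were not tested. With 1 array a side no difference has an error, and dim probe sets give the least certain sizes.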

Other observations

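Among 38 cyclins, CDKs and their inhibitors, 6 (15.8%) were at least 2-fold higher, the same share as of all genes, and 3 (7.89%) lower, against 2.2% of all genes. RBL1 and RB1, the pocket proteins that bind E2F, were 2.01 and 1.47 higher, and E2F1, one of the factors they bind, was at -1.22, from 7.72 to 6.51. CDK4, which phosphorylates RB1, read 11.39 in mock HMW and 10.29 after 10 Gy. Of 22 heat shock and chaperone genes, 4 (18.2%) were at least 2-fold higher, near the 15.8% of all genes, with DNAJB4 at 2.01 and DNAJC3 at 1.84. Among noncoding transcripts, OIP5-AS1 was 2.16 higher and NORAD 1.55 higher in HMW, and 2.76 and 2.12 higher in LMW, with 0.13 and 0.20 in Total. NORAD read 8.51 in mock HMW and 10.06 after 10 Gy.

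Of 63 mitochondrial ribosomal protein genes, 44 were below 0, where 48.2% of all genes were, with a median of -0.30 and MRPL4 at -1.01. Against KD mock HMW their median was -0.0032, and their median genomic span was 10.5 kb, in a range where all genes also had medians below 0. Proteasome subunits had 0 of 31 at or beyond 2-fold, and 1 of 64 nuclear-encoded respiratory chain genes was at least 2-fold higher, NDUFA5 at 1.03. Of all genes, 15.8% were at least 2-fold higher and 2.2% at least 2-fold lower. FASN, fatty acid synthase, was at -1.06, from 10.04 to 8.98.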
